A study of Mus musculus with 20 samples.

Results

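The Kruppel-like factors described here were the 9 genes Klf2, Klf3, Klf4, Klf5, Klf6, Klf9, Klf10, Klf13 and Klf16, found by symbol among the 13283 genes of a bulk mRNA sequencing table of mouse embryonic stem cells. The table held 20 libraries in 5 genotype groups. All cells were labelled C57BL/6 and male and were kept in medium with serum, LIF and 2i (inhibitors of MEK and GSK3), so every group received both signals. Trim71-cond cells (genotype label Trimfl/fl, 4 libraries) carried floxed Trim71 and served as the control for Trim71-KO cells (4 libraries). No clone was named for these 8 libraries, and the labels do not say how or where Trim71 was deleted. The other 12 libraries came from 9 clones, 3 each of WT, Trim71-R595H/+ and Trim71-R595H/R595H, in which one or both copies of the RNA-binding protein TRIM71 had the R595H change. Clones C16 (WT), C15 (R595H/+) and C14 (R595H/R595H) each had libraries dated 20/1 and 5/2 in their titles, which were averaged, so n counts clones.

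Kruppel-like factors are transcription factors with a run of C2H2 zinc fingers at the C terminus that binds GC-rich DNA and CACCC boxes. In mouse embryonic stem cells KLF2, KLF4 and KLF5 support naive self-renewal with overlapping functions, Klf4 being activated by LIF through STAT3. KLF9, KLF10, KLF13 and KLF16 carry an N-terminal region that recruits the SIN3A corepressor, and KLF3 recruits the corepressor CtBP. KLF6 is a broadly expressed activator of GC-rich promoters.

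RefSeq promoter windows (GRCm38.p6) were at hand for 6 of the 9 genes, Klf2, Klf3, Klf4, Klf6, Klf9 and Klf13. The 250 bases before the start site are shown for Klf4 and Klf9, which rose together after Trim71 deletion, and for Klf13, which recruits the same corepressor as Klf9 and was not called. They lie at chr4:55532476-55532725 (Klf4, minus strand), chr19:23140976-23141225 (Klf9, plus strand) and chr7:63938916-63939165 (Klf13, minus strand), and are written 5′ to 3′ on the strand of the gene.
Klf4: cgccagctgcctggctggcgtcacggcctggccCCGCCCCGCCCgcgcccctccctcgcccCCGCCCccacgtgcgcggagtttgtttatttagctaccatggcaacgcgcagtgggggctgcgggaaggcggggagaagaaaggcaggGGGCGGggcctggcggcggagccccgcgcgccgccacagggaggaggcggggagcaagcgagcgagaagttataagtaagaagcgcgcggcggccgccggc
Klf9: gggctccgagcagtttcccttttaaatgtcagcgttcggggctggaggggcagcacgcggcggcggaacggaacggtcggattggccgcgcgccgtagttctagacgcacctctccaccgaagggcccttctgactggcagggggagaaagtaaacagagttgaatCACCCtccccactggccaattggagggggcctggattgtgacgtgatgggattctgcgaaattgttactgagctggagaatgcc
Klf13: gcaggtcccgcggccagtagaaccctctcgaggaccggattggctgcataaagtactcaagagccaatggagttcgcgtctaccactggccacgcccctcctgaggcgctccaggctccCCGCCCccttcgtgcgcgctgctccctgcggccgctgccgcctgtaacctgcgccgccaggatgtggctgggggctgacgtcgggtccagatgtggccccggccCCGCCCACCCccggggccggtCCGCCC
Capitals mark the KLF core, which reads CACCC, or GGGTG where it lies on the opposite strand, and the Sp box, which reads GGGCGG, or on the opposite strand the letters CCGCCC. The Klf4 window held no KLF core and 4 Sp boxes, the Klf9 window 1 KLF core and no Sp box, and the Klf13 window 1 KLF core and 3 Sp boxes. Adjacent Sp boxes in Klf4, and the KLF core and an Sp box in Klf13, overlap by 1 base. Of the 6 windows, 4 held a KLF core and 5 an Sp box. Among all 32851 promoter windows of the same length, 52.0% held a KLF core and 32.7% an Sp box. Matches are letters in a window and not measured binding sites.

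Levels below are the deposited values on a log2 scale, on which 1 unit is a doubling, as mean ± SD. A gene was called where the limma adjusted p (Benjamini-Hochberg over all genes tested) was under 0.05, and all 9 genes passed the filter on low values, a mean of at least 3.32. Trim71 itself was lower in Trim71-KO (7.47 ± 0.05, n = 4) than in Trim71-cond (8.95 ± 0.04, n = 4). It was higher in R595H/R595H (10.11 ± 0.10, n = 3) than in WT (9.50 ± 0.03, n = 3). The conditional libraries of code 1A stood apart. Across genes, the deviations of Trim71-cond 1A and Trim71-KO 1A from their group means correlated at -0.890. These deviations thus tended to have opposite signs, and whether they pointed towards the other group was not tested. Conditional changes of the 9 genes and their partners are therefore also given without code 1A. Library medians lay between 5.15 and 5.20, and the share of Lars2 in the back-transformed sum between 0.334% and 13.2%. Averaged over 4 Y-linked genes, the level ranged from 5.65 to 6.20 in the conditional libraries and from 3.72 to 6.00 in the clones, and it served as a covariate in an alternative clonal fit. Of 8 embryonic stem cell markers 7 had a mean above the filter, Utf1 being under it, and their summed level ranged from 12.63 to 12.67 in Trim71-cond, 12.74 to 12.79 in Trim71-KO, 12.77 to 12.96 in WT, 12.76 to 12.90 in R595H/+ and 12.87 to 13.03 in R595H/R595H. The conditional groups did not overlap in this sum, but its genes did not all move one way. Nanog (mean 10.28 in Trim71-cond and 10.67 in Trim71-KO), Sox2, Esrrb and Tfcp2l1 had higher means in Trim71-KO. Zfp42 (7.55 in Trim71-cond and 7.35 in Trim71-KO), Pou5f1, Dppa5a and Utf1 had lower means there. No primitive endoderm or fibroblast marker in the table was above the filter, while 1 of 3 formative or primed, 1 of 1 mesoderm, 2 of 3 trophectoderm and 2 of 4 neural markers were. Summed trophectoderm markers, mainly Krt8 and Krt18, ranged from 5.74 to 6.40 in Trim71-cond, 5.37 to 5.98 in Trim71-KO, 5.42 to 5.64 in WT, 5.20 to 5.53 in R595H/+ and 5.81 to 5.90 in R595H/R595H, with Gata3 at 0.21 to 0.41 in every library. Summed formative or primed markers, mainly Dnmt3b, were at 7.06 to 7.30 in Trim71-cond, 7.00 to 7.35 in Trim71-KO, 6.78 to 7.13 in WT, 6.73 to 7.14 in R595H/+ and 7.35 to 7.43 in R595H/R595H. For both sums R595H/R595H lay above WT and R595H/+ with no overlap. The part of these markers in the results below was not tested. In bulk RNA, more cells that express a gene and more RNA per cell cannot be told apart.

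Per kilobase of annotated exon (GENCODE vM21, GRCm38), the log2 level of the 9 genes in WT clones ran from 6.82 for Klf4 through 6.19 for Klf2, 6.12 for Klf9, 5.63 for Klf5, 5.17 for Klf10, 3.97 for Klf6, 3.54 for Klf3 and 3.09 for Klf16 to 2.48 for Klf13. The naive trio of Klf2, Klf4 and Klf5 thus shared the top 4 places with Klf9. In WT only Klf2 and Klf9, among neighbours in this order, had overlapping clone values. In Trim71-cond cells Klf2 (6.48 ± 0.15 per kilobase) stood above Klf4 (6.24 ± 0.16), with ranges that overlapped. In Trim71-KO the order of this pair was the other way round, Klf4 at 6.98 ± 0.09 above Klf2 at 6.64 ± 0.10, and their ranges no longer overlapped. The order in Trim71-cond depends on the annotated exon lengths, 3049 bases for Klf4 and 1847 for Klf2. Without that scaling, Klf4 was above Klf2 in both groups (7.84 and 7.36 in Trim71-cond, 8.59 and 7.52 in Trim71-KO). In R595H/R595H Klf4 was first at 7.29 ± 0.08, followed by Klf9 at 6.33 ± 0.03 and Klf2 at 6.01 ± 0.07, none of which overlapped. By group means, the place of Klf5 after these and the places of Klf10, Klf6, Klf3, Klf16 and Klf13 after Klf5 were the same in every group. Some of these neighbours had overlapping ranges. They were Klf3 and Klf16 in Trim71-cond, Trim71-KO and R595H/R595H, Klf5 and Klf10 in R595H/R595H, and Klf6 and Klf3 in R595H/+.

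The comparison of Trim71-KO with Trim71-cond asks what loss of Trim71 does to these transcripts. Klf4, Klf5 and Klf9 rose in Trim71-KO, and none of the 9 fell. These 3 of 9 stood beside a background of 9.24% of the 9580 genes tested that were called higher, 9.37% lower and 18.6% in either direction. The median change of the 9 genes was 0.12 on the log2 scale, against -0.00 over all genes tested.

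Klf4, on chromosome 4 from 55527143 to 55532466 (minus strand), encodes one of the factors used to reprogram somatic cells to pluripotency. Its log2 level was 7.94 (1A), 7.96 (2B), 7.62 (3A) and 7.85 (3B) in Trim71-cond. In Trim71-KO it was 8.48 (1A), 8.68 (2B), 8.55 (3A) and 8.64 (3B). Every Trim71-KO library lay above every Trim71-cond library, and Trim71-cond 3A was the lowest of all. The change was 0.74 ± 0.07 (SE), or 1.674-fold, with a limma adjusted p of 9.3e-07. Without code 1A the change in Klf4 was 0.81 (limma adjusted p = 2.6e-09), and between same-coded libraries it was 0.54 for 1A, 0.72 for 2B, 0.93 for 3A and 0.79 for 3B.

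Klf5, on chromosome 14 from 99298691 to 99315036 (plus strand), encodes an activator that also acts in the trophectoderm and inner cell mass of the blastocyst. The Trim71-cond libraries were close together at 7.59 (1A), 7.62 (2B), 7.55 (3A) and 7.65 (3B). The Trim71-KO libraries were at 8.07 (1A), 8.29 (2B), 8.02 (3A) and 7.98 (3B), again with no overlap. Klf5 rose by 0.49 ± 0.07 (SE), or 1.403-fold, with a limma adjusted p of 5.1e-05, and by 0.49 without code 1A (limma adjusted p = 6.8e-05). Code 2B had the widest gap, at 0.67, and code 3B the narrowest, at 0.33.

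Klf9, on chromosome 19 from 23141226 to 23168134 (plus strand), encodes a repressor known as a target of glucocorticoid and thyroid hormone receptors. It was at 8.00 (1A), 8.04 (2B), 8.02 (3A) and 8.08 (3B) in Trim71-cond. It was at 8.34 (1A), 8.19 (2B), 8.33 (3A) and 8.54 (3B) in Trim71-KO. The groups did not overlap, and the Trim71-KO libraries were spread more widely (SD 0.14 against 0.03). The rise was 0.32 ± 0.07 (SE), or 1.248-fold, with a limma adjusted p of 0.0022, and 0.31 without code 1A (limma adjusted p = 0.0074).

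Klf2, the third gene of the naive trio, on chromosome 8 from 72319033 to 72321656 (plus strand), was not called. Its Trim71-cond libraries were at 7.47 (1A), 7.40 (2B), 7.44 (3A) and 7.14 (3B), and its Trim71-KO libraries at 7.44 (1A), 7.62 (2B), 7.43 (3A) and 7.60 (3B). The groups overlapped, since codes 1A and 3A differed by no more than 0.04 while 2B differed by 0.22 and 3B by 0.45. The change in Klf2 was 0.16, with a 95% interval from 0.00 to 0.32 and a limma adjusted p of 0.15. Without code 1A it was 0.22 (limma adjusted p = 0.083).

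**Figure D1:**
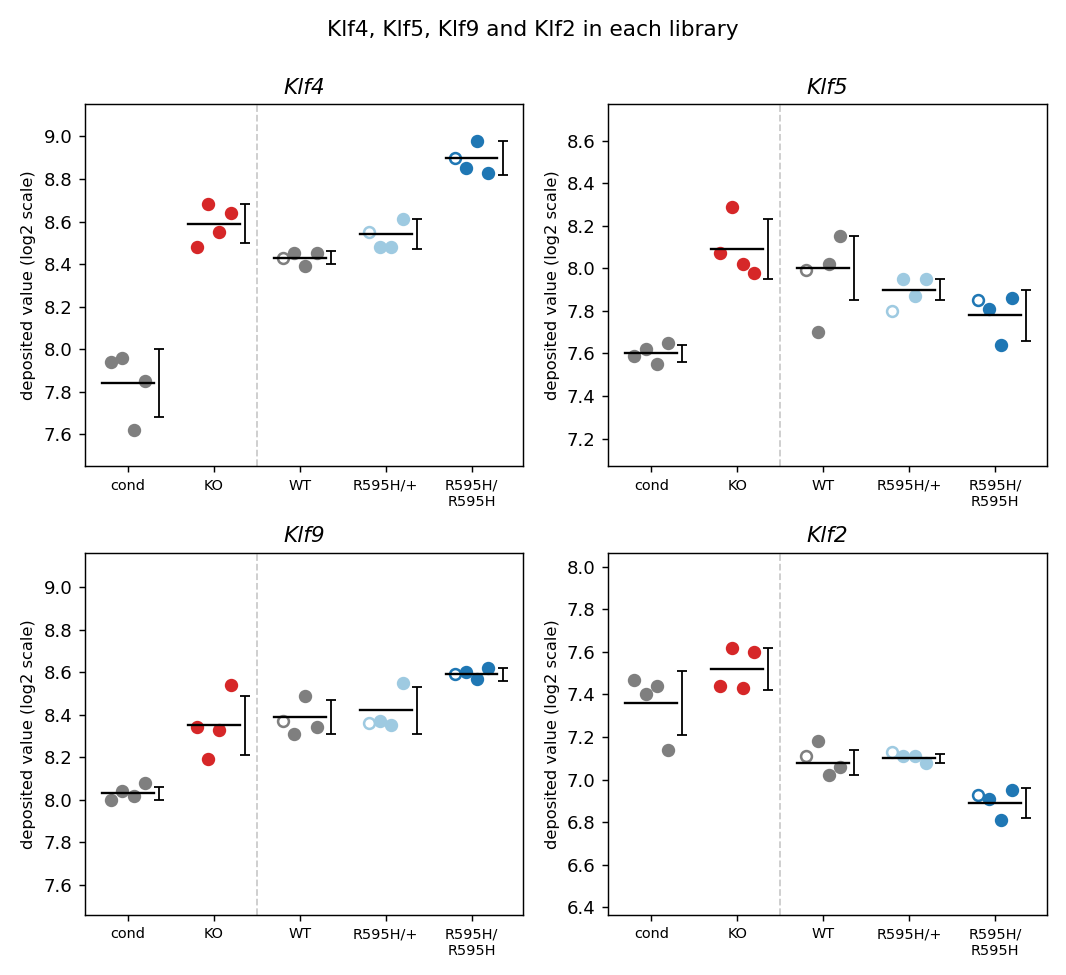
Deposited log2 values of Klf4, Klf5, Klf9 and Klf2 (vertical axis, each panel spanning the same height) in every library, by genotype group. Points are libraries, open points those dated 20/1, horizontal lines group means and bars to the right 1 SD over libraries (conditional groups, n = 4) or clones (clonal groups, n = 3); Klf4 in Trim71-KO lies between 8.48 and 8.68, above the highest Trim71-cond library at 7.96.

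The other members did not pass the test in Trim71-KO. Klf6 was the narrowest in spread, at 5.98 ± 0.02 (n = 4) in Trim71-cond and 6.08 ± 0.03 (n = 4) in Trim71-KO. Its groups did not overlap, but the change of 0.11 ± 0.07 (SE) had a limma adjusted p of 0.32. With it 4 of the 9 genes had all Trim71-KO libraries above all Trim71-cond libraries, beside 10.6% of all genes tested. Among the SIN3-recruiting genes, Klf13 was not called at -0.21 (95% interval -0.46 to 0.03, limma adjusted p = 0.21), and its difference was -0.05 without code 1A. Klf10 changed by 0.12 (95% interval -0.05 to 0.29) and Klf16 by 0.02 (-0.19 to 0.24), neither of them called. Klf3, the CtBP-recruiting repressor, was at 6.94 ± 0.05 in Trim71-cond and 6.82 ± 0.12 in Trim71-KO (n = 4 each), with a change of -0.13 and a limma adjusted p of 0.23. Without code 1A the change was -0.16 for Klf3, 0.12 for Klf6, 0.16 for Klf10 and -0.02 for Klf16, whose sign turned, and none of these was called. The annotated exons of Klf3 share 404 bases with Gm20033 on the other strand. The kit named in the labels does not mark strand, so reads there cannot be told apart.

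The comparison of R595H/R595H with WT asks what the changed protein does when both copies carry it. Klf4 rose here as well and was the only one of the 9 genes called, while the other members of the naive trio, Klf2 and Klf5, had lower means than WT without passing the test. The 1 of 9 stood beside a background of 2.19% of the 9587 genes tested that were called higher (3.42% in either direction).

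In WT clones Klf4 was at 8.43 (C16, 20/1), 8.45 (C16, 5/2), 8.39 (C5) and 8.45 (C7). In R595H/R595H clones it was at 8.90 (C14, 20/1), 8.85 (C14, 5/2), 8.98 (C20) and 8.83 (C24). Every homozygous library lay above every WT library, and the WT clones had an SD of 0.03 around 8.43. The rise in Klf4 was 0.47 ± 0.07 (SE), or 1.384-fold, with a limma adjusted p of 0.0036.

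Klf5 was at 7.99 (C16, 20/1), 7.70 (C16, 5/2), 8.02 (C5) and 8.15 (C7) in WT. It was at 7.85 (C14, 20/1), 7.81 (C14, 5/2), 7.64 (C20) and 7.86 (C24) in R595H/R595H. The groups overlapped through C16, whose libraries differed by 0.29. The difference was -0.23, with a 95% interval from -0.42 to -0.04 and a limma adjusted p of 0.15.

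Klf2 was at 7.08 ± 0.06 in WT and 6.89 ± 0.07 in R595H/R595H (n = 3 each). All homozygous libraries, from 6.81 to 6.95, were below all WT libraries, from 7.02 to 7.18, yet the difference of -0.18 ± 0.08 (SE) had a limma adjusted p of 0.19. Klf9 was at 8.39 ± 0.08 in WT and 8.59 ± 0.03 in R595H/R595H (n = 3 each), also with no overlap, and its difference of 0.20 had a limma adjusted p of 0.14.

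Clone means were also apart for Klf16, which was higher in R595H/R595H by 0.19 (limma adjusted p = 0.29), and for Klf13, which was lower there (-0.22, limma adjusted p = 0.15). In both genes the C16 library dated 5/2 lay within the range of the homozygous libraries. In all, clone means did not overlap for 5 of the 9 genes, 3 higher and 2 lower, beside 29.7% of all genes tested. Klf3 (-0.14), Klf6 (-0.03) and Klf10 (-0.05) overlapped, with limma adjusted p-values of 0.53 for Klf3, 0.88 for Klf6 and 0.87 for Klf10. The median change of the 9 genes was -0.05, against -0.00 over all genes tested.

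**Figure D2:**
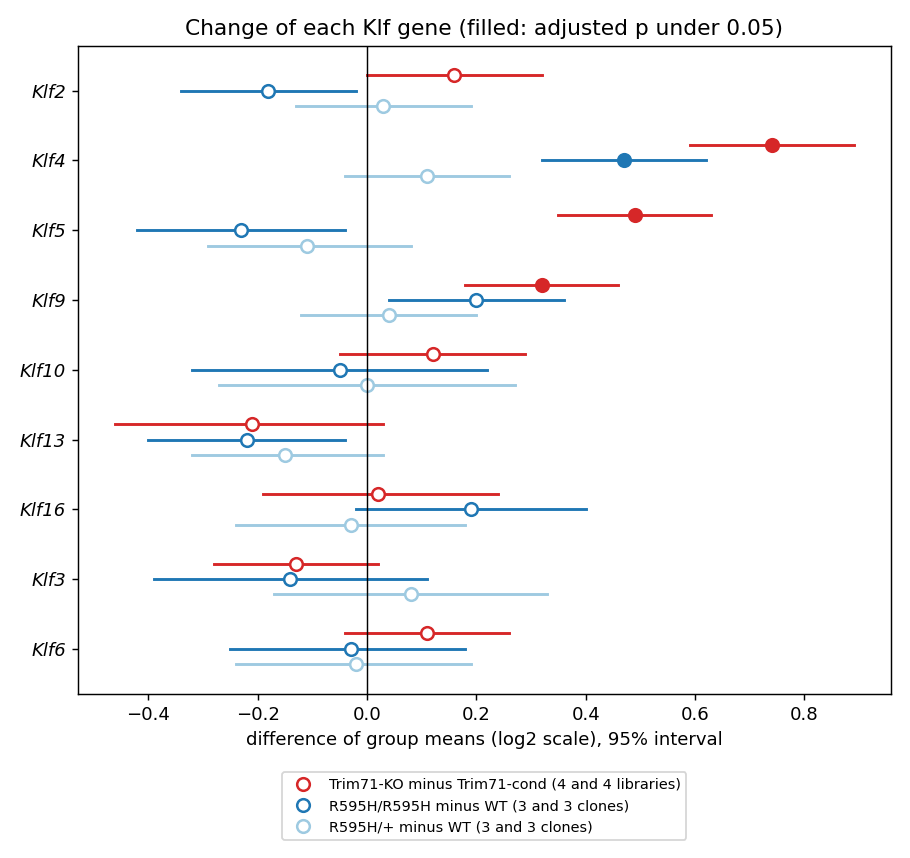
Difference of group means on the log2 scale with its 95% interval (horizontal axis) for each of the 9 genes (vertical axis) in Trim71-KO minus Trim71-cond, R595H/R595H minus WT and R595H/+ minus WT. Filled points passed an adjusted p of 0.05: Klf4, Klf5 and Klf9 for the deletion, Klf4 alone for R595H/R595H, and none for R595H/+.

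With one copy changed, no member was called. The limma test of R595H/+ against WT called 0 of 9587 genes, with 734 at an unadjusted p under 0.05, none of them a Kruppel-like factor. Klf4 in R595H/+ was at 8.55 (C15, 20/1), 8.48 (C15, 5/2), 8.48 (C21) and 8.61 (C23). All 4 libraries were above the WT libraries, but the difference of 0.11 (95% interval -0.04 to 0.26) had a limma adjusted p of 0.77. It was the only member whose clone means did not overlap, beside 6.27% of all genes tested that were higher in this way. For the other 8 genes the differences lay between -0.15 (Klf13) and 0.08 (Klf3).

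Between R595H/R595H and R595H/+, Klf4 was higher in the homozygous clones by 0.36 ± 0.07 (SE), or 1.284-fold, with a limma adjusted p of 0.032. This 1 of 9 stood beside 0.574% of all genes tested that were called higher and 0.772% called in either direction. The order of Klf4 was thus WT, R595H/+ and R595H/R595H, of which the first pair did not differ beyond the test. The call was lost, with limma adjusted p-values up to 0.15, when any one of C5, C14, C15, C16, C20 or C21 was left out. It was also lost with equal library totals and with the Y-linked mean as a covariate. Klf2 (-0.21), Klf16 (0.22) and Klf9 (0.17) had limma adjusted p-values of 0.16, 0.25 and 0.25. Clone means were apart for 6 of the 9 genes, 3 in each direction, beside 25.4% of all genes tested. The clonal comparisons share clones and are not independent of each other.

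The deletion effect minus the R595H/R595H effect was taken in one fit of both systems, in which starting cells, handling and genotype cannot be told apart. Klf5 was the only member called, at 0.72 ± 0.11 (SE, limma adjusted p = 0.0015), beside 0.73% of all genes tested that were called higher and 1.42% in either direction. Klf5 changed by 0.49 with the deletion and by -0.23 in R595H/R595H. Its level in Trim71-KO was 8.09 ± 0.14 (n = 4), in WT clones 8.00 ± 0.15 (n = 3) and in Trim71-cond 7.60 ± 0.04 (n = 4). Levels were not tested between the systems. Mean Klf9 and Klf4, like mean Klf5, were lower in Trim71-cond (8.03 ± 0.03 and 7.84 ± 0.16, n = 4) than in WT clones (8.39 ± 0.08 and 8.43 ± 0.03, n = 3). In Trim71-KO, Klf9 was at 8.35 ± 0.14 and Klf4 at 8.59 ± 0.09 (n = 4). For Klf2 the difference of effects was 0.34 (limma adjusted p = 0.11) and for Klf4 0.28 (95% interval 0.06 to 0.49, limma adjusted p = 0.16). Klf9 differed by 0.12 between the systems, with a 95% interval from -0.09 to 0.33.

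**Figure D3:**
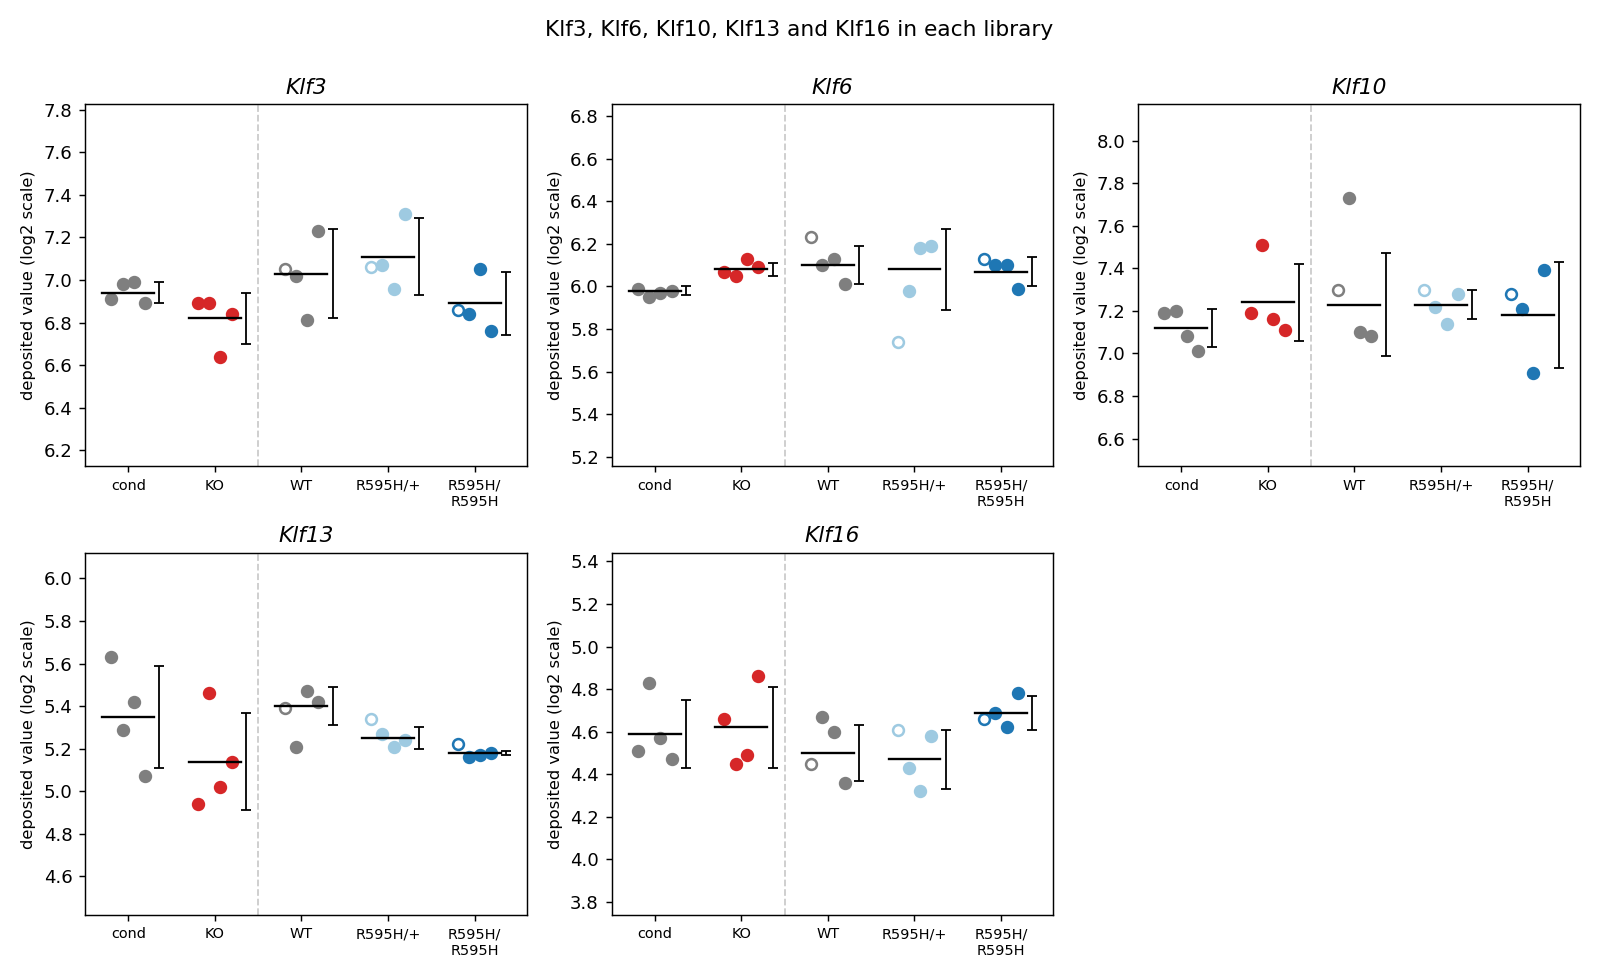
Deposited log2 values of Klf3, Klf6, Klf10, Klf13 and Klf16 in every library, drawn as for the other 4 genes. None of these 5 genes was called in any comparison, and Klf10 in WT clone C16 was at 7.30 on 20/1 and 7.73 on 5/2.

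Libraries of one clone differed little for Klf4, by 0.02 (C16), 0.07 (C15) and 0.05 (C14), against a rise of 0.47. The same held for Klf9, at 0.06, 0.01 and 0.02 in these clones. For Klf5 (0.29), Klf6 (0.13), Klf10 (0.43) and Klf16 (0.21) the libraries of C16 lay further apart than the WT and R595H/R595H means. The pair of C14 libraries correlated at 0.95 across genes after centring, whereas those of C16 correlated at 0.24 and those of C15 at 0.30. Across genes, the C16 library dated 20/1 was most like WT C7 (0.56), and the C15 library dated 5/2 was most like R595H/+ C21 (0.71). R595H/+ C23 was the only clonal library nearest to one of another genotype, the WT C16 library dated 5/2, at 0.12.

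Genes that act with the Kruppel-like factors were read from lists chosen with earlier results of these data known. Counts of called genes in these lists are therefore a description and not independent support. Of 14 partners in the pluripotency circuit, 7 rose and 3 fell in Trim71-KO (median 0.18, against -0.00 over all genes), beside 9.24% of all genes tested that were called higher and 9.37% lower. Without code 1A 9 of the 14 were called. The nuclear receptor gene Nr5a2 rose by 0.52 ± 0.06 (SE), the 5-methylcytosine dioxygenase gene Tet2 by 0.39 ± 0.05, Nanog by 0.39 ± 0.05 and the T-box gene Tbx3 by 0.36 ± 0.06. Dppa3 (0.30), Sox2 (0.23) and Fgf4 (0.23) rose too, while the zinc-finger gene Sall4 fell by 0.46, Tcl1 by 0.38 and Zfp42 by 0.20. Adjusted p-values from limma ran up to 0.039 (Zfp42). The calls of Dppa3 and Zfp42 were lost with a replicate block, at limma adjusted p-values of 0.053 and 0.084. In one fit of all 17 values Dppa3, Zfp42 and Sox2 were not called (limma adjusted p = 0.052, 0.081 and 0.22), nor was Zfp42 without the trend and robust settings (limma adjusted p = 0.057). The call of Dppa3 was also lost without code 1A (0.26), 3A or 3B, that of Zfp42 without any one of the 4 codes (-0.18 without 1A), and that of Sox2 without code 2B. Without code 1A the changes were 0.51 for Nr5a2, 0.43 for Tet2, 0.41 for Nanog, 0.40 for Tbx3, 0.28 for Sox2, 0.28 for Fgf4, -0.48 for Sall4 and -0.41 for Tcl1, all called.

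In R595H/R595H 2 of the 14 partners rose, Tet2 by 0.53 ± 0.07 (SE, limma adjusted p = 0.0019) and Tbx3 by 0.29 ± 0.07 (limma adjusted p = 0.044), and none fell, beside 2.19% of all genes tested that were called higher and 3.42% in either direction. Tbx3 did not pass without any one of 7 of the 9 clones, where its limma adjusted p reached 0.18. It did not pass either with equal library totals (0.26, limma adjusted p = 0.14), with the Y-linked covariate (0.23, limma adjusted p = 0.12), from the 5/2 libraries alone or without the trend and robust settings. Nanog, at 0.23, had a limma adjusted p of 0.094, and passed in one fit of all 17 values (0.033) and after quantile normalization (0.043).

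Of 10 reported targets of KLF proteins in stem cells, 3 rose in Trim71-KO, Nanog, Tbx3 and the E-cadherin gene Cdh1 (0.37 ± 0.05, SE), and Tcl1 fell, beside the 18.6% of all genes called in either direction. Nanog, Tbx3 and Tcl1 also stand in the partner list, so only Cdh1 adds to it, at 0.30 without code 1A (limma adjusted p = 0.0011). In R595H/R595H 1 of the 10 was called, Tbx3, beside 3.42% of all genes, and Cdh1 differed by 0.21 ± 0.11 (SE) without a call. The median change of the 10 was 0.14 with the deletion and 0.20 in R595H/R595H.

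Of 15 genes of the LIF and STAT3 pathway, 12 were tested. The list mixes components of the pathway with genes that respond to it, so not all of them lie upstream of Klf4. The feedback inhibitor genes Socs2 (0.47 ± 0.09, SE) and Socs3 (0.37 ± 0.11) rose in Trim71-KO, and the kinase gene Pim1 fell by 0.28. These 3 of 12 (25.0%) were near the 18.6% of all genes called in either direction. Without code 1A the changes were 0.43 for Socs2, 0.50 for Socs3 and -0.36 for Pim1, and 4 of the 12 were called. The median of the 12 was -0.05, and in R595H/R595H none of them was called, the closest being Tyk2 (0.23, limma adjusted p = 0.12) and Tfcp2l1 (0.19, limma adjusted p = 0.16). Socs3 was no longer called when code 2B (0.24, limma adjusted p = 0.18), 3A or 3B was left out, nor Pim1 without 2B or 3B.

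Among 10 corepressor genes, the CtBP gene Ctbp2 (0.20 ± 0.06, SE), Rcor1 (0.28 ± 0.08) and the deacetylase gene Hdac2 (0.18 ± 0.06) rose in Trim71-KO. Sap30 fell by 0.28 and Sin3a by 0.18. These 5 of 10 stood beside 18.6% of all genes called in either direction, and were 3 of 10 with a replicate block. Without code 1A 4 of the 10 were called, with Ctbp2 at 0.23, Hdac2 at 0.24 and Sap30 at -0.31. With a replicate block Ctbp2 (limma adjusted p = 0.052) and Sin3a (limma adjusted p = 0.052) were not called, and without code 1A Rcor1 (limma adjusted p = 0.066) and Sin3a (limma adjusted p = 0.29) were not. Hdac2 was not called with no filter (limma adjusted p = 0.054) or without the trend and robust settings (limma adjusted p = 0.11). Sin3a was not called with no filter (limma adjusted p = 0.057), equal library totals (limma adjusted p = 0.06) or without the trend and robust settings (limma adjusted p = 0.10). Ctbp2 was also lost without 2B or 3A, Rcor1 without 2B, Sin3a without 2B or 3B and Hdac2 without 2B, 3A or 3B, so that without code 2B only 1 of the 10 was called. None of the 10 was called in R595H/R595H, where Ctbp2 had a difference of 0.26 and a limma adjusted p of 0.093 (0.036 in one fit of all 17 values).

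Of 8 other Klf genes 6 were in the table and 3 passed the filter, Klf7, Klf8 and Klf11, none of them called in any comparison. Of 9 Sp genes, zinc-finger relatives that bind the GC-rich Sp box, 7 were in the table and 5 passed the filter. Sp2 rose in Trim71-KO by 0.27 ± 0.09 (SE, limma adjusted p = 0.035). This 1 of 5 (20.0%) was near the 18.6% of all genes called in either direction, and 2 of 5 were called without code 1A. The call of Sp2 was lost with a replicate block (limma adjusted p = 0.066) or without code 2B, 3A or 3B. No Sp gene was called in R595H/R595H.

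**Figure D4:**
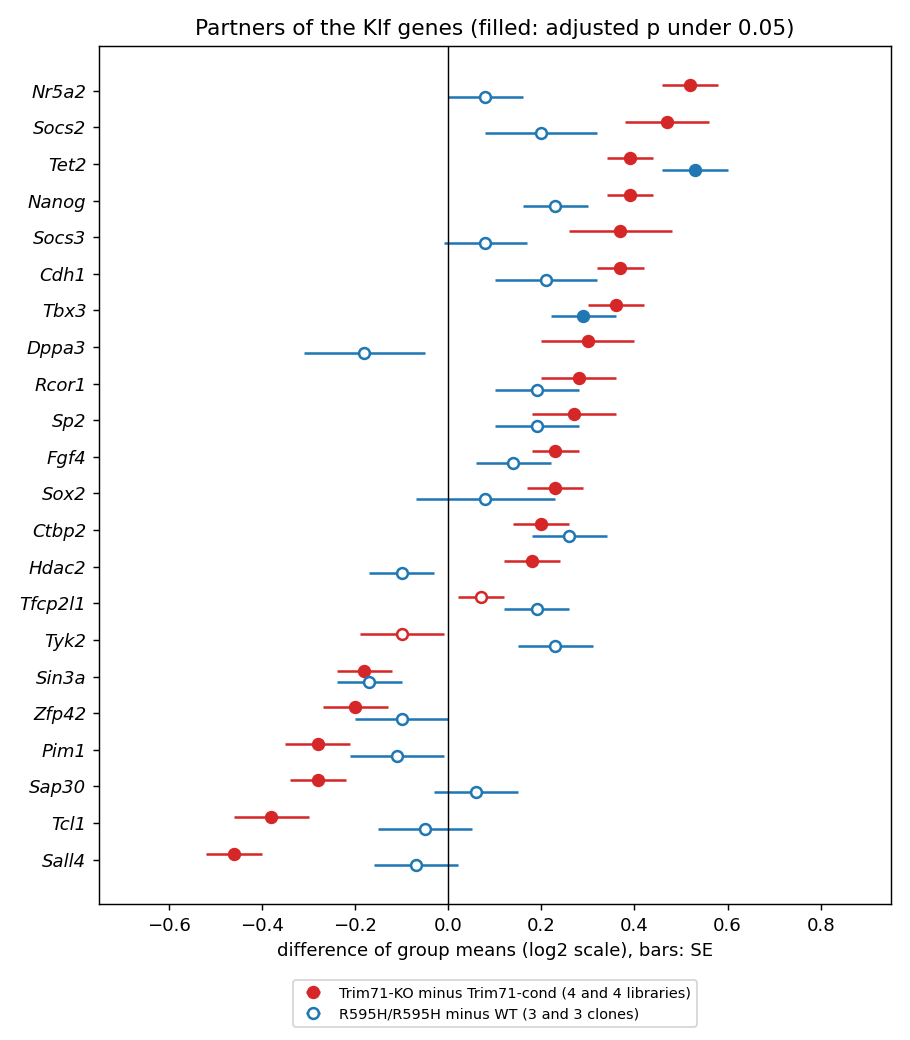
Log2 differences with SE (horizontal axis) of list genes that are named in the text, in Trim71-KO minus Trim71-cond and in R595H/R595H minus WT. Filled points passed an adjusted p of 0.05; Tet2 and Tbx3 are filled in both, and Sall4, at -0.46 with the deletion, lies at the lower end.

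For each member called, the 3 tested genes with the most similar values over the 17 libraries or clones were taken after centring within each system, as a description. Those nearest to Klf4 were Wdr35, Mcam and Polh, with root mean square differences of 0.105, 0.105 and 0.110 against a median of 0.328 over all genes. Of these, Polh was called in both systems, at 0.55 with the deletion and 0.40 in R595H/R595H (limma adjusted p = 0.032). Nearest to Klf5 were 5730455P16Rik, Timmdc1 and Scai (0.089 to 0.102, median 0.236), which changed by 0.31 to 0.44 with the deletion and by -0.13 to -0.04 in R595H/R595H. Nearest to Klf9 were Dip2a, Fbxw7 and Wwp1 (0.062 to 0.067, median 0.192).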

How the data were processed

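The authors deposited one table of values on a log2 scale, scaled between libraries. The submitters' processing notes name CASAVA 1.8, STAR and DESeq2. The build, annotation, counting and transformation were not given in the sources used here, and base 2 was inferred from DESeq2. The values, between -0.65 and 18.0, resemble regularized logs, which understate the changes of low genes. Depth is unknown, so no interval that needs it is given.

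Values were used as deposited in limma 3.58.1 (R 4.3.3; lmFit, eBayes with trend and robust), tested on simulated data. The conditional fit held 8 libraries, the clonal fit 9 clone values and the fit of both systems 17. Genes with a mean under 3.32 (10 on the linear scale) were left out. Trim71-KO libraries were not labelled as separate deletions, so p-values there measure only the spread of these libraries, possibly technical. Dates follow the titles, with which another label of some clone libraries disagreed.

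The members and lists were chosen with earlier results of these data known. Text names every member, Trim71, other Klf and Sp genes called, the 2 genes per list with the smallest p in each of the Trim71-KO and R595H/R595H comparisons, and the 3 nearest genes per called member. Socs3, Dppa3, Sox2, Fgf4, Tcl1, Zfp42 and Hdac2, and Nanog as a partner gene, were named after their values were seen, because they were called. The numbers of codes 1A, 2B, 3A and 3B match a day label, which 3A and 3B share, so pairing by day comes from the labels and pairing 3A with 3A from the code alone. Deviations of same-coded libraries correlated at -0.890 (1A), -0.089 (2B), -0.117 (3A) and 0.130 (3B). The values thus show no clear shift shared by same-coded libraries, and the 1A pair deviated in opposite directions. A replicate block does not take up such opposite deviations. Alternatives were another normalization (2 kinds), no filter, other variance settings, a replicate block, other treatments of clones and leaving out libraries or clones. A block by day and the fits leaving out single conditional libraries were added after seeing the data.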

Additional observations from a re-analysis of the deposited data

Results flagged for a closer look

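The effect of the deletion on Klf5 differed from that of R595H/R595H by 0.72 on the log2 scale (limma adjusted p = 0.0015), in a test of the difference itself. Klf5 was higher in 4 of 4 Trim71-KO libraries than in any Trim71-cond library, while in R595H/R595H its mean was lower than in WT without passing the test. Without code 1A the difference was 0.72 as well (limma adjusted p = 0.0025). Genotype, starting cells and handling cannot be told apart between the systems. By Dixon's test, no member had an outlying library in a conditional group at its 95% critical value for groups of 4. The gap of the farthest library over the group's whole range came closest to that value for Klf10 in Trim71-KO (0.797, code 2B), Klf3 in Trim71-KO (0.792, code 3A) and Klf2 in Trim71-cond (0.769, code 3B).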

How the results depend on the processing

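The calls of Klf4, Klf5 and Klf9 in Trim71-KO, of Klf4 in R595H/R595H and of Klf5 in the difference between the systems were made under every alternative run. Across the leave-one-out fits Klf4 ranged from 0.67 to 0.81 with the deletion and from 0.42 to 0.50 in R595H/R595H, Klf5 from 0.42 to 0.54 and Klf9 from 0.26 to 0.38 with the deletion, and the difference for Klf5 from 0.64 to 0.80. With the replicate block, 3 members were called in Trim71-KO, Klf4 at 0.74. The block changed no other call among the members. It lowered the number of all genes called in the difference between the systems from 136 to 67, and ended the calls of Dppa3, Zfp42, Ctbp2, Sin3a and Sp2. A replicate block by labelled day, added after seeing the data, also left 3 members called in Trim71-KO and Klf5 in the difference (limma adjusted p = 0.0028), where 79 of all genes were called. It ended the calls of Dppa3, Zfp42, Hdac2, Sin3a and Sp2.

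In R595H/R595H against R595H/+, the number of members called was 0 with equal library totals and with the Y-linked mean as a covariate, and 0 to 1 with a clone left out. Of 873 values of members under the alternatives, 42 changed sign, none of them called, and 8 lost the call, all of them Klf4 in that comparison. Single settings that changed sign were Klf6 in R595H/+ from the 5/2 libraries only (0.04), Klf6 in R595H/R595H against R595H/+ with 12 libraries and clone as a random effect (0.01), and Klf10 in R595H/+ with the Y-linked covariate (0.00). The other sign changes came with a library or clone left out. In Trim71-KO, Klf16 ranged from -0.10 to 0.16. In R595H/R595H against WT, the ranges were -0.08 to 0.01 for Klf6, -0.15 to 0.09 for Klf10, -0.20 to 0.01 for Pim1, -0.16 to 0.03 for Sall4, -0.10 to 0.33 for Sox2 and -0.11 to 0.00 for Tcl1. In R595H/+ against WT they were -0.02 to 0.18 for Klf3, -0.08 to 0.09 for Klf6, -0.03 to 0.08 for Klf9, -0.08 to 0.14 for Klf10 and -0.10 to 0.05 for Klf16. In R595H/R595H against R595H/+ they were -0.12 to 0.05 for Klf6 and -0.15 to 0.09 for Klf10. In the difference between the systems they were -0.09 to 0.12 for Klf3 and -0.12 to 0.16 for Klf13. The cause was not tested.

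The number of all genes called moved by over 1.5 times in several settings. In R595H/R595H against WT it was 328, and 157 with equal library totals (72 higher and 85 lower, against 210 and 118), 604 in one fit of all 17 values, 191 from the 5/2 libraries, 134 with the Y-linked covariate and 67 to 541 with a clone left out. In R595H/R595H against R595H/+ it was 74, and 116 with no filter, 19 with equal library totals (11 and 8, against 55 and 19), 278 in one fit, 213 with clone as a random effect, 3 with the Y-linked covariate and 7 to 80 with a clone left out. Leaving out libraries or clones gave 988 to 1634 in Trim71-KO and 25 to 225 in the difference between the systems, where equal library totals gave 70 higher and 32 lower against 70 and 66. Depth is unknown, and limits on low genes such as Klf13 and Klf16 could not be computed.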
